A study of Mus musculus with 9 samples.

Results

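The genes described here are 10 transport and regulatory genes of the distal convoluted tubule and the connecting tubule of the mouse kidney: Slc12a3, Calb1, Trpm6, Trpv5, Pvalb, Slc8a1, Wnk1, Wnk4, Klhl3 and Atp2b1. They were chosen by symbol, and each symbol matched 1 of the 29678 Ensembl identifiers in the count tables through GENCODE M21 on GRCm38, the assembly also named mm10. All 10 were among the 17967 genes that passed the filter on low counts, and the lowest count of any of them in a library was 8 (Pvalb). RNA was sequenced from whole kidney in 3 groups, 24 h after the operation or reperfusion: BHBNa_bIRI kidneys, which had ischemia-reperfusion injury of both sides after a pretreatment with beta-hydroxybutyrate sodium, bIRI kidneys, which had the injury alone, and Sham kidneys, which had the sham operation. The labels list 3 libraries a group. Strain, sex, age, number of animals, and dose and schedule of beta-hydroxybutyrate, a ketone body made by the liver in fasting, are not given in the sources used here, and nothing in them states that the libraries of a group are from separate animals, so the p-values measure the spread between these libraries, which may be technical.

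The distal convoluted tubule is the short segment beyond the thick ascending limb, and the connecting tubule joins it to the collecting duct. Sodium chloride enters its cells through the thiazide-sensitive cotransporter NCC, the product of Slc12a3. WNK kinases switch NCC on through the kinases SPAK and OSR1, and KLHL3 is the adaptor that brings WNK kinases to a cullin-3 ubiquitin ligase for destruction. Calcium enters through the channel TRPV5, is carried across the cell by calbindin-D28k (Calb1), and leaves through the exchanger NCX1 (Slc8a1) and the pump PMCA1 (Atp2b1), while magnesium enters through TRPM6.

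Of the 10 genes, 9 had an entry in the RefSeq promoter table (GRCm38.p6), which did not include Calb1. The 250 bases before the annotated start are shown for the cotransporter gene and for the 3 genes of the WNK and KLHL3 arm, because these 4 belong to 1 pathway and are set against each other in the values that follow. Each is written 5′ to 3′ in the direction of the gene, and capitals mark an AP-2 site (GCCNNNGGC, the same on both strands) or a TATA box (TATAAA or TTTATA); these marks did not overlap.
Slc12a3, chr8:94328958-94329207, plus strand: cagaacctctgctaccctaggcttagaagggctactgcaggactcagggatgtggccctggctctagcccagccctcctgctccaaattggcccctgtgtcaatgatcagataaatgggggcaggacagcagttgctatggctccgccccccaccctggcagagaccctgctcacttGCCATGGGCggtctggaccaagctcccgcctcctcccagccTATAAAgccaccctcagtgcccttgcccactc
Wnk1, chr6:120038656-120038905, minus strand: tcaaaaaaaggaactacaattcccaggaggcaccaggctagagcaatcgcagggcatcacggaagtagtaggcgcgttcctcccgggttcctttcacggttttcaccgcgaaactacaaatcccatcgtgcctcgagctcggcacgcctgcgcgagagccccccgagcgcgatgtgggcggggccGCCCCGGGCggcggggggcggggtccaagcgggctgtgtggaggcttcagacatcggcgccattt
Wnk4, chr11:101260317-101260566, plus strand: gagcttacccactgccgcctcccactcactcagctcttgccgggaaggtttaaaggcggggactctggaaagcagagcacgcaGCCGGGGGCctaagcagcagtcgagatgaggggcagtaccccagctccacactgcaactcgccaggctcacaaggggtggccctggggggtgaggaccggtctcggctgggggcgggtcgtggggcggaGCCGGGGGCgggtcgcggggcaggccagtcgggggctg
Klhl3, chr13:58113648-58113897, minus strand: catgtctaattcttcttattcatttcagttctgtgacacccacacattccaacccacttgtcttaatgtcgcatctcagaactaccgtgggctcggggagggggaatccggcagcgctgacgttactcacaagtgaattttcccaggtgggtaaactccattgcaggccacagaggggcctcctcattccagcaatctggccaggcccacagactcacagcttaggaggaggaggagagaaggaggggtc
In Slc12a3 the TATA box began 32 bases before the start. Klhl3 held none of the motifs searched. The 9 genes had 11 windows, since Pvalb and Atp2b1 had more than 1 each. AP-2 sites, the motif of a factor family that includes Tfap2b of the distal nephron, were in 6 of the 11 windows. These belonged to 5 genes (Slc12a3, Wnk1, Wnk4, Pvalb and Trpm6), and 13.7% of all 32851 windows of this length held the motif. TATA boxes were in 2 of the 11 (Slc12a3 and Trpv5) and in 12.4% of all. The HNF1 half-site GTTAAT (or ATTAAC) and the estrogen-related receptor half-site AAGGTCA (or TGACCTT) were in 0 of the 11, against 6.43% and 4.08% of all windows. The motifs were chosen after values were seen. The 11 windows were not matched with all windows for GC content, so the shares test no enrichment. These matches describe the letters only.

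Total counts were 44225882 to 45014455 in BHBNa_bIRI, 41204065 and 33477985 in bIRI replicates 1 and 3, and 43206974 to 45909063 in Sham. The table of bIRI replicate 2 held, in 29678 of 29678 genes, the whole part of the average of the other bIRI tables (replicates 1 and 3), so it was left out and 8 libraries were compared. The 2 remaining bIRI libraries differed widely from each other: on the second principal component of log2 CPM (read counts scaled to library size), with 22.7% of the variance, bIRI replicate 3 lay at -130 and the other 7 libraries between -5.92 and 39.9. The injury marker Lcn2, which encodes NGAL, stood at 1488 to 1884 CPM in BHBNa_bIRI, 2435 and 1000.1 CPM in bIRI and 1.96 to 3.36 CPM in Sham. The kidney segments were present by their defining markers, with the uromodulin gene Umod of the thick ascending limb at 219 to 2865 CPM and the phosphate transporter gene Slc34a1 of the proximal tubule at 359 to 5392 CPM over the 8 libraries. CPM values are on libraries scaled with TMM, the trimmed mean of M-values, and whole-kidney RNA cannot tell fewer cells of a segment from less RNA per cell.

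As levels per length (CPM per kilobase of the longest coding transcript), the 10 genes covered a wide range. In Sham kidneys Slc12a3 was the most abundant at 87.7 ± 35.5 (SD, n = 3), then Calb1 at 49.2 ± 1.91, Wnk4 at 27.4 ± 3.50 and Wnk1 at 19.2 ± 3.49 CPM per kilobase (SD, n = 3 each), and no library of one of these overlapped the next. Pvalb, Klhl3, Trpv5, Atp2b1 and Slc8a1 followed at means of 8.42, 5.31, 4.60, 3.54 and 3.31 CPM per kilobase, each overlapping its neighbour in this order, and Trpm6 was lowest at 1.14 ± 0.349 (SD, n = 3). In BHBNa_bIRI kidneys Slc12a3 still led, at 22.4 ± 2.19 CPM per kilobase, Wnk4 came next at 13.6 ± 1.60, and Calb1 and Wnk1 overlapped at 7.93 ± 2.14 and 7.50 ± 0.375 (SD, n = 3 each). Pvalb was lowest there, at 0.438 ± 0.230 CPM per kilobase (SD, n = 3). In bIRI kidneys the ranges of Slc12a3, Calb1 and Wnk4 ran into each other, since bIRI replicate 1 held 22.1 CPM per kilobase of Slc12a3 and bIRI replicate 3 held 107.

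In BHBNa_bIRI against Sham, 8 of the 10 genes fell and 0 rose by edgeR's quasi-likelihood test at an adjusted p of 0.05, where 43.6% of the 17967 genes tested were called, 21.3% higher and 22.2% lower. At an unadjusted p under 0.05, 0 were higher and 9 lower (52.1% of all genes were under it in either direction). DESeq2 called 9 lower and 0 higher (48.1% of all genes). Their median log2 fold change was -1.67, beside 0.04 over all genes tested. All BHBNa_bIRI libraries lay below all Sham libraries for 9 of the 10 genes (64.8% of all genes had no overlap, 32.6% with BHBNa_bIRI higher and 32.2% with it lower), and Atp2b1 was the gene that overlapped. In bIRI against Sham, 1 of 10 rose (Atp2b1), 2 fell (Pvalb and Klhl3) and 7 were not called, where 35.1% of all genes were called, 18.9% higher and 16.2% lower. Complete separation of bIRI and Sham was seen for 4 of the 10, 1 higher and 3 lower, and for 55.9% of all genes, 28.7% higher and 27.2% lower, and the median log2 fold change was -0.42, beside 0.08 over all genes. In BHBNa_bIRI against bIRI, 4 of 10 fell (Calb1, Slc8a1, Wnk1 and Atp2b1), 0 rose and 6 were not called, where 13.5% of all genes were called, 4.88% higher and 8.65% lower. At an unadjusted p under 0.05, 0 were higher and 7 lower (34.5% of all genes were under it in either direction). DESeq2 called 6 lower and 0 higher (27.2% of all genes). These 2 groups separated for 5 of the 10, all lower in BHBNa_bIRI, and for 46.0% of all genes, 22.2% higher and 23.8% lower, and the median was -1.02, beside -0.05. The 3 comparisons share libraries and are not independent of each other.

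**Figure D1:**
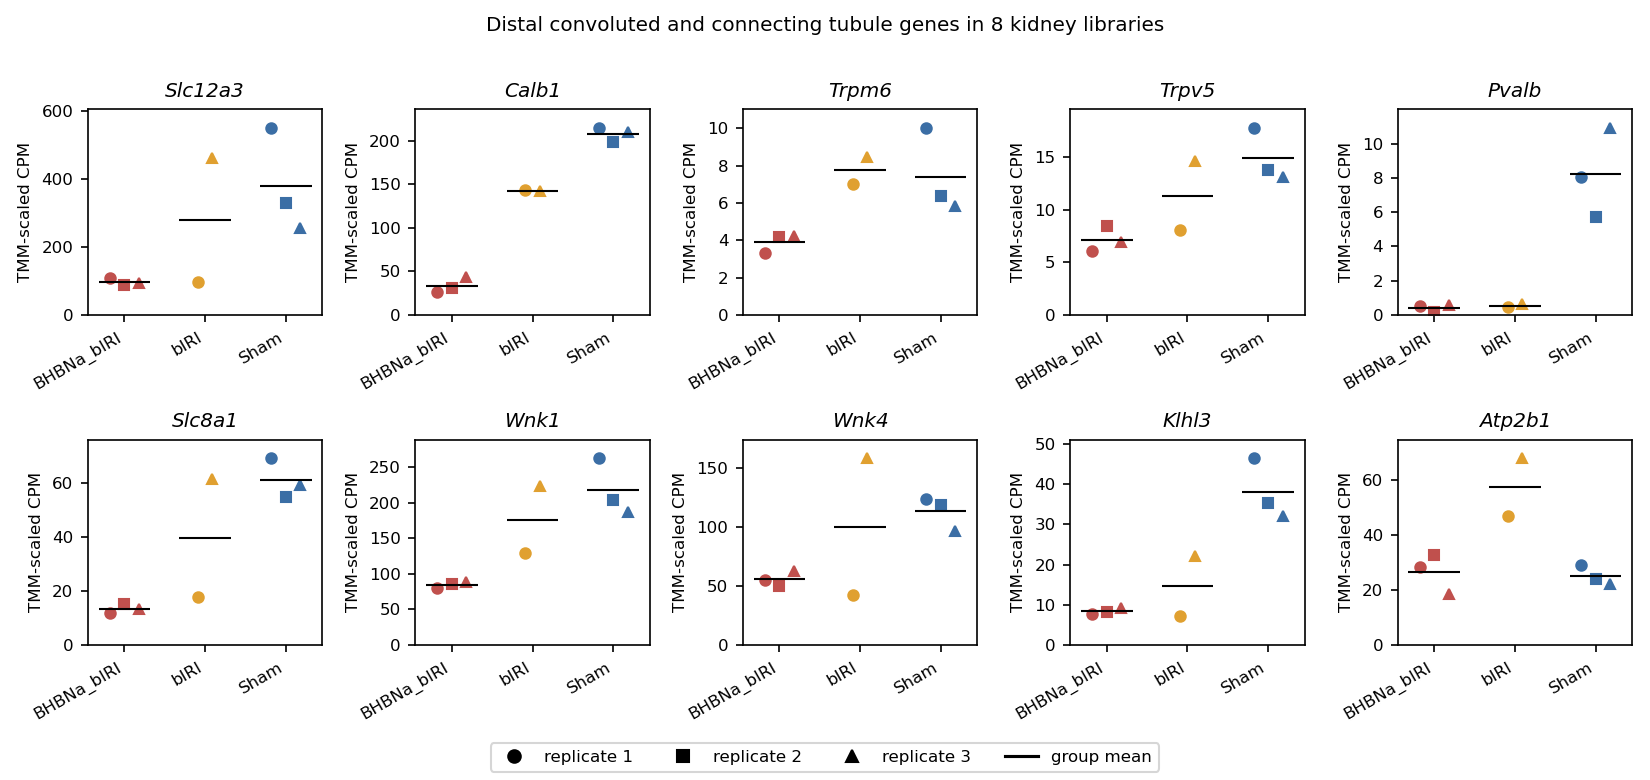
TMM-scaled CPM (y axis, from 0, its own scale for each gene) of the 10 genes in BHBNa_bIRI, bIRI and Sham libraries; each point is 1 library, its shape the replicate number, and the line the group mean. The 3 BHBNa_bIRI points sit below the 3 Sham points in 9 panels and overlap them for Atp2b1, and the 2 bIRI points lie far apart for Slc12a3, Slc8a1, Wnk4 and Klhl3.

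**Figure D2:**
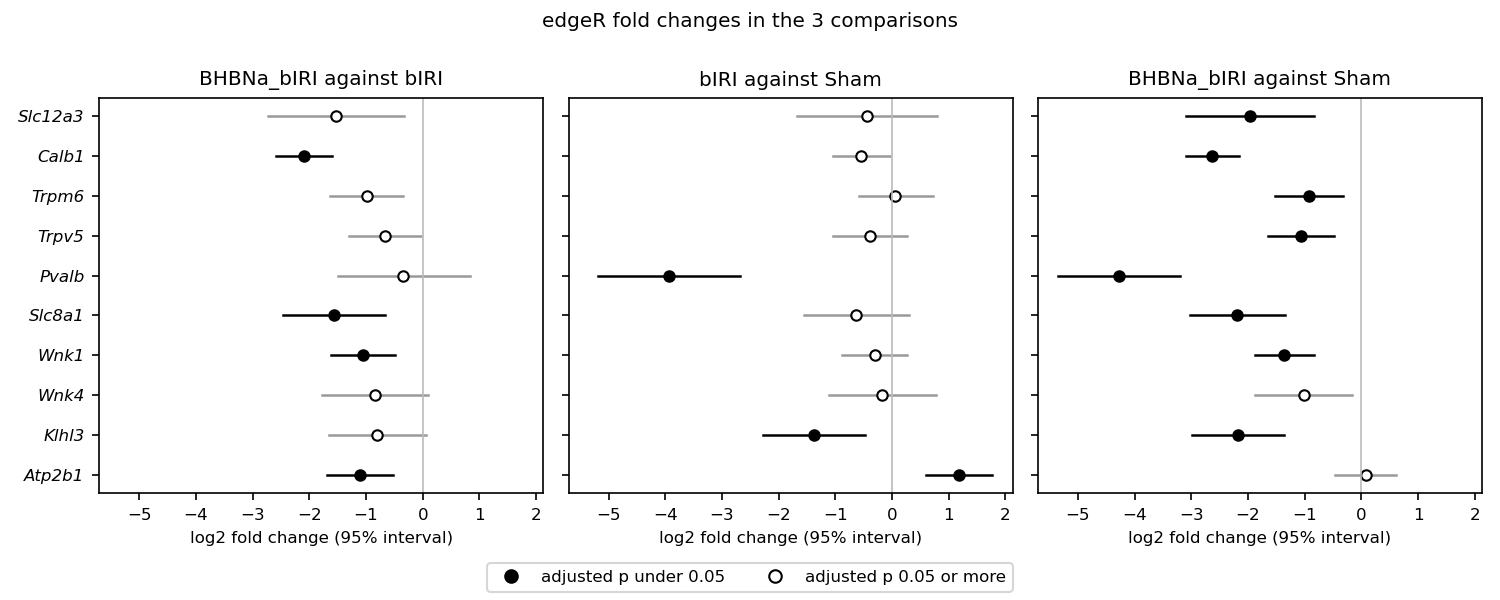
Log2 fold change (x axis) with its 95% interval for the 10 genes in 3 comparisons from 1 edgeR fit of 8 libraries; filled points passed an adjusted p of 0.05. Calb1, Slc8a1, Wnk1 and Atp2b1 are filled on the left, Pvalb, Klhl3 and Atp2b1 in the middle, and all genes other than Wnk4 and Atp2b1 on the right.

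In BHBNa_bIRI against Sham, 7 or 8 of the 10 genes were called with a Sham or BHBNa_bIRI library left out (30.2% to 36.3% of all genes). Without Sham replicate 1 or without BHBNa_bIRI replicate 1 the call of Trpm6 was lost (adjusted p 0.0958 and 0.0760 by edgeR), and with either bIRI library left out Wnk4 was called as well. The count in bIRI against Sham depended on the bIRI library, with 8 called without bIRI replicate 3 (36.4% of all genes) and 3 without bIRI replicate 1 (46.3% of all genes), and without Sham replicate 1 the call of Klhl3 was lost (adjusted p 0.0819). In BHBNa_bIRI against bIRI, 0 of 10 were called without Sham replicate 1, Sham replicate 2 or BHBNa_bIRI replicate 1, 1 without Sham replicate 3, bIRI replicate 3 or BHBNa_bIRI replicate 3, 2 without BHBNa_bIRI replicate 2, and 9 without bIRI replicate 1, where 42.8% of all genes were called. It was also 0 of 10 by edgeR once each library was corrected for trends with transcript length and GC content, when 2 of all 17967 genes were called, against 2431 before. In these fits with a count of 0, 5 or 6 of the 10 genes were lower at an unadjusted p under 0.05.

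Among the genes of sodium chloride uptake, Slc12a3 (ENSMUSG00000031766, GRCm38 chromosome 8, 94329201 to 94366214) had 107, 88.5 and 94.5 CPM in BHBNa_bIRI replicates 1 to 3, 95.1 and 462 CPM in bIRI replicates 1 and 3, and 549, 330 and 254 CPM in Sham replicates 1 to 3. The BHBNa_bIRI libraries were alike and low, bIRI replicate 1 lay among them, and bIRI replicate 3 lay among the Sham libraries. Slc12a3 fell in BHBNa_bIRI against Sham, to 25.6% of Sham (log2 fold change -1.97, SE 0.50, edgeR adjusted p 0.0116; with no filter on low counts 0.0744). It was not called in BHBNa_bIRI against bIRI, at -1.53 (95% interval -2.73 to -0.33, adjusted p 0.0803), nor in bIRI against Sham, at -0.44 (95% interval -1.67 to 0.79). When replicate 1 stood alone for bIRI, these log2 fold changes were 0.02 and -1.99, and when replicate 3 did they were -2.20 and 0.22, where the lone library is assumed to vary like the other groups.

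Wnk4 (ENSMUSG00000035112, chromosome 11, 101260567 to 101277409), a kinase gene of the distal nephron, had 54.8, 49.9 and 62.9 CPM in BHBNa_bIRI, 42.6 and 158 CPM in bIRI replicates 1 and 3, and 124, 118 and 96.6 CPM in Sham. The lowest and the highest of the 8 values were thus both in bIRI, and BHBNa_bIRI lay below Sham without overlap. The log2 fold change against Sham was -1.02 (SE 0.38) and just missed the threshold (adjusted p 0.0547; 9.06e-05 to 0.148 over the 17 alternatives, 5 of which called it). Wnk4 shares 306 exonic bases with the antisense gene Gm11615, and the strand setting of the counting is not given in the sources used here, so reads of both cannot be told apart there.

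Wnk1 (ENSMUSG00000045962, chromosome 6, 119923969 to 120038672), a kinase gene that many cell types use and that also has a short kidney-specific form not separable in gene counts, had 80.5, 85.7 and 88.9 CPM in BHBNa_bIRI, 129 and 224 CPM in bIRI, and 262, 204 and 186 CPM in Sham. BHBNa_bIRI was the lowest group and overlapped neither of the others. Wnk1 fell against Sham, to 39.1% (log2 fold change -1.36, SE 0.23, edgeR adjusted p 0.00151), and was called in all 17 alternatives. Against bIRI it fell to 48.2% (-1.05, SE 0.25, adjusted p 0.0341), with -0.60 when bIRI replicate 1 stood alone and -0.39 with length and GC trends taken out, neither of them called.

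Klhl3 (ENSMUSG00000014164, chromosome 13, 58000228 to 58113592), the gene of the WNK-binding ubiquitin ligase adaptor, had 7.81, 8.14 and 9.24 CPM in BHBNa_bIRI, 7.13 and 22.2 CPM in bIRI, and 46.4, 35.3 and 32.1 CPM in Sham. Every library of an injured kidney, pretreated or not, was below every Sham library. Klhl3 fell in BHBNa_bIRI to 22.1% of Sham (log2 fold change -2.18, SE 0.36, edgeR adjusted p 0.00132, called in all 17 alternatives). It fell in bIRI to 38.6% of Sham (-1.37, SE 0.40, adjusted p 0.0261), with -2.41 for bIRI replicate 1 alone and -0.85 for bIRI replicate 3 alone. Between BHBNa_bIRI and bIRI it was not called, at -0.80 (95% interval -1.66 to 0.06).

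In calcium transport, the channel, the carrier protein, the exchanger and the pump did not share a pattern. Trpv5 (ENSMUSG00000036899, chromosome 6, 41652173 to 41680769), the gene of the apical entry channel, had 6.08, 8.46 and 6.93 CPM in BHBNa_bIRI, 8.10 and 14.6 CPM in bIRI, and 17.8, 13.8 and 13.2 CPM in Sham. BHBNa_bIRI overlapped with bIRI through bIRI replicate 1 and lay below Sham. Trpv5 fell against Sham, to 48.1% (log2 fold change -1.06, SE 0.26, edgeR adjusted p 0.00950; 0.0552 with the length and GC correction and the replicate block), and was not called in the other comparisons, at -0.67 against bIRI (adjusted p 0.130) and -0.39 for bIRI against Sham (adjusted p 0.322).

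Calb1 (ENSMUSG00000028222, chromosome 4, 15881264 to 15908064), whose product buffers and ferries calcium in these cells, had 26.2, 30.7 and 43.6 CPM in BHBNa_bIRI, 143 and 142 CPM in bIRI replicates 1 and 3, and 214, 199 and 210 CPM in Sham. The 3 groups were separate, and both bIRI libraries had nearly the same value. Calb1 fell to 16.1% of Sham in BHBNa_bIRI (log2 fold change -2.63, SE 0.21, edgeR adjusted p 3.01e-05, called in all 17 alternatives). Against bIRI it fell to 23.5% (-2.09, SE 0.22, adjusted p 0.0266), and this was the call that remained without bIRI replicate 3, at -2.10. With length and GC trends taken out it was -1.41 with an adjusted p of 0.0518. In bIRI against Sham it was at -0.54 (95% interval -1.04 to -0.04, adjusted p 0.0863), and -1.27 with an adjusted p of 0.00810 under that correction.

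Slc8a1 (ENSMUSG00000054640, chromosome 17, 81373105 to 81738377), the gene of the basolateral sodium-calcium exchanger, which heart and smooth muscle use too, had 11.7, 15.3 and 13.2 CPM in BHBNa_bIRI, 17.7 and 61.3 CPM in bIRI, and 69.0, 54.8 and 59.3 CPM in Sham. As for Slc12a3, bIRI replicate 3 lay within the Sham range, and bIRI replicate 1 lay just above the BHBNa_bIRI libraries. Slc8a1 fell in BHBNa_bIRI to 22.0% of Sham (log2 fold change -2.19, SE 0.38, edgeR adjusted p 0.00166, called in all 17 alternatives). It fell against bIRI to 34.0% (-1.56, SE 0.40, adjusted p 0.0379), where each bIRI library alone gave -0.40 (replicate 1) and -2.14 (replicate 3), and where -0.44 was left with length and GC trends taken out. In bIRI against Sham it was at -0.63 (95% interval -1.55 to 0.29, adjusted p 0.263), and at -1.64 with an adjusted p of 0.00307 under that correction. Slc8a1 has the longest transcript of the 10, at 18464 bases, and shares 296 exonic bases with an antisense gene that the tables do not list.

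Atp2b1 (ENSMUSG00000019943, chromosome 10, 98914406 to 99026143), the gene of a plasma membrane calcium pump found in most cell types, ran the other way after injury. It had 28.5, 32.9 and 18.5 CPM in BHBNa_bIRI, 46.9 and 68.0 CPM in bIRI, and 29.1, 24.2 and 22.4 CPM in Sham. Both bIRI libraries were above the other 6, which overlapped. Atp2b1 rose 2.27-fold in bIRI against Sham (log2 fold change 1.18, SE 0.26, edgeR adjusted p 0.00758, called in all 17 alternatives, with 0.64 once length and GC trends were taken out). In BHBNa_bIRI it fell to 46.4% of bIRI (-1.11, SE 0.26, adjusted p 0.0335; -0.38 with that correction, not called), and against Sham it was at 0.08, with a 95% interval of -0.46 to 0.61.

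Pvalb (ENSMUSG00000005716, chromosome 15, 78191114 to 78206400), whose product parvalbumin is a calcium-binding protein of the early distal convoluted tubule and of fast muscle, had the largest fold changes of the 10 in both comparisons against Sham. It had 0.513, 0.172 and 0.598 CPM in BHBNa_bIRI, 0.438 and 0.633 CPM in bIRI, and 8.05, 5.73 and 10.9 CPM in Sham, from 8 to 29 counts in each injured library and 251 to 422 in each Sham library. All 5 injured libraries were far below the Sham libraries and overlapped among themselves. Pvalb fell to 5.17% of Sham in BHBNa_bIRI (log2 fold change -4.27, SE 0.48, edgeR adjusted p 0.000171) and to 6.54% of Sham in bIRI (-3.93, SE 0.55, adjusted p 0.000856), and both were called in all 17 alternatives. Between BHBNa_bIRI and bIRI it was at -0.34 (95% interval -1.50 to 0.83). Skeletal muscle markers, which 8 counted genes represented, summed to 1.49 to 2.41 CPM in BHBNa_bIRI, 0.810 and 3.49 CPM in bIRI and 1.91 to 2.60 CPM in Sham, and the creatine kinase gene Ckm was at 0 to 0.0517 CPM in the 8 libraries.

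Trpm6 (ENSMUSG00000024727, chromosome 19, 18749983 to 18892511), the gene of the magnesium channel, was the least abundant of the 10 per length in Sham. It had 3.31, 4.20 and 4.21 CPM in BHBNa_bIRI, 7.0 and 8.48 CPM in bIRI, and 10.01, 6.37 and 5.84 CPM in Sham. BHBNa_bIRI was below both other groups, which overlapped. Trpm6 fell against Sham, to 52.7% (log2 fold change -0.92, SE 0.27, edgeR adjusted p 0.0193), and lost the call with length and GC trends taken out (-0.57, adjusted p 0.0683). Against bIRI it was at -0.99 and missed the threshold (adjusted p 0.0509), and bIRI against Sham gave 0.06 (95% interval -0.59 to 0.72).

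**Figure D3:**
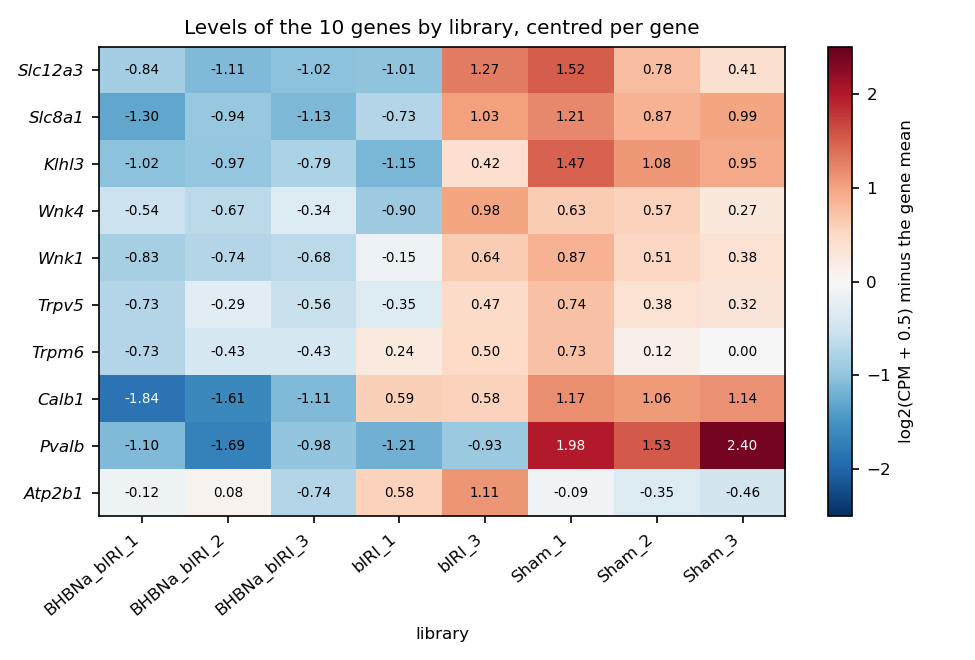
Log2(CPM + 0.5) of each gene (rows) in each library (columns), minus the mean of that gene over the 8 libraries. For Slc12a3, Slc8a1, Klhl3, Wnk4, Wnk1 and Trpv5, bIRI replicate 1 has the sign of the BHBNa_bIRI columns and bIRI replicate 3 that of the Sham columns, whereas Calb1 is alike in both bIRI libraries and Pvalb is low in all 5 injured libraries.

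The size of the split between both bIRI libraries differed from gene to gene. On the log2(CPM + 0.5) scale, bIRI replicate 1 minus replicate 3 was -2.28 for Slc12a3, -1.88 for Wnk4, -1.76 for Slc8a1 and -1.57 for Klhl3, but -0.26 for Trpm6 and 0.01 for Calb1. Of the 10 genes, 8 were lower in bIRI replicate 1 than in every Sham library (39.5% of all genes tested were), while 3 were so in bIRI replicate 3 (Calb1, Pvalb and Klhl3; 41.6% of all genes). All 10 were higher in bIRI replicate 3 than in every BHBNa_bIRI library (43.1% of all genes). Of the 10, 5 were so in bIRI replicate 1 (Calb1, Trpm6, Slc8a1, Wnk1 and Atp2b1; 35.3% of all genes). By the root mean square difference of centred log2(CPM + 0.5) over the 8 libraries, the closest pair of the 10 was Trpv5 and Wnk1 at 0.203, and the farthest was Pvalb and Atp2b1 at 1.86.

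**Figure D4:**
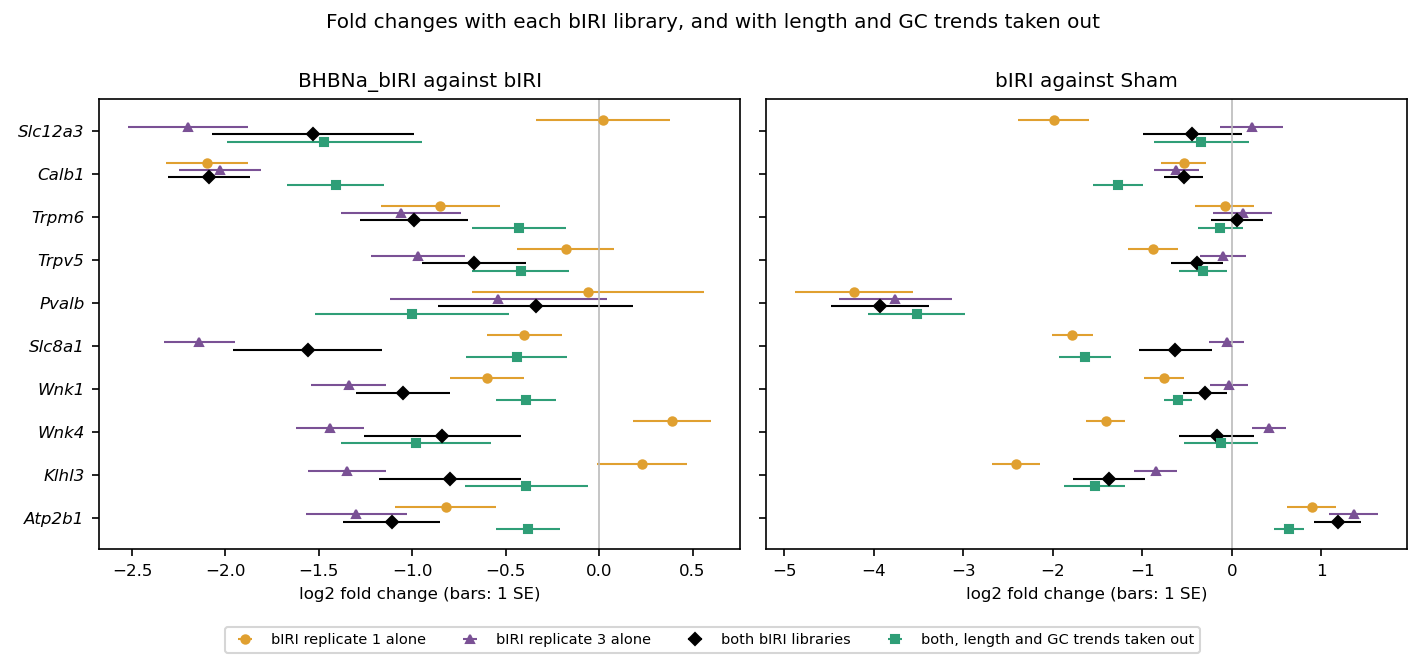
Log2 fold change (x axis, bars 1 SE) of the 10 genes in BHBNa_bIRI against bIRI and in bIRI against Sham, from fits with 1 bIRI library alone, with both, and with both after length and GC trends were taken out. In the left panel Slc12a3, Wnk4 and Klhl3 are on opposite sides of 0 for the lone bIRI libraries, and Calb1 stays between -2.10 and -2.03 with either; the corrected values of Slc8a1, Wnk1 and Atp2b1 lie nearer to 0.

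Markers of neighbouring segments varied between libraries too. Summed CPM of the 10 genes was 324 to 343 in BHBNa_bIRI, 497 and 1161 in bIRI replicates 1 and 3, and 891 to 1330 in Sham. For 8 thick ascending limb markers it was 346 to 958 in BHBNa_bIRI, 1588 and 4642 in bIRI, and 2305 to 3910 in Sham, so that the same bIRI library was the high one. The cotransporter gene Slc12a1 of that limb had 17.8 to 25.3 CPM in BHBNa_bIRI, 33.1 and 1114 CPM in bIRI, and 272 to 542 CPM in Sham. Principal cell markers summed to 1045 to 1098 CPM in BHBNa_bIRI, 612 and 1441 in bIRI, and 752 to 941 in Sham, and intercalated cell markers to 177 to 221, 192 and 426, and 437 to 483 CPM in the same order. Proximal tubule markers summed to 22476 to 35765 CPM in BHBNa_bIRI, 24901 and 9563 in bIRI, and 36543 to 56863 in Sham. Kap alone made up 23331 and 8216 CPM of the bIRI sums. The 9 other proximal markers summed to 1818 to 1975 CPM in BHBNa_bIRI, 1570 and 1346 in bIRI, and 12363 to 13857 in Sham. Of these 9, 5 were higher in bIRI replicate 3 than in replicate 1. Smooth muscle and pericyte markers were at 719 to 741 CPM in BHBNa_bIRI, 782 and 190 in bIRI, and 262 to 314 in Sham, and podocyte markers at 421 to 599, 739 and 362, and 489 to 632 CPM. Endothelial markers summed to 302 to 487 CPM in BHBNa_bIRI, 575 and 343 in bIRI, and 378 to 389 in Sham, and macrophage and neutrophil markers to 164 to 209, 99.8 and 88.3, and 80.9 to 128 CPM. The part of segment or cell type content in the results on the 10 genes was not tested.

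Counted by the same edgeR calls, 6 of the 8 thick ascending limb markers, 3 of 7 tested principal cell markers, 4 of 8 intercalated cell markers and 9 of 10 proximal tubule markers fell in BHBNa_bIRI against Sham, with median log2 fold changes of -2.24, -0.43, -1.14 and -2.88, beside 8 of 10 and -1.67 for the distal convoluted and connecting tubule genes. Of all genes, 22.2% fell and 21.3% rose in that comparison. In these lists 2 markers rose, the principal cell genes Aqp2 (1.04, SE 0.30), of a water channel, and Fxyd4 (2.31, SE 0.26). In BHBNa_bIRI against bIRI the counts of genes that fell were 4, 0, 1 and 1 for these marker lists, with medians of -1.67, -0.39, -0.69 and 0.42. Of all genes, 8.65% fell there. Fxyd4 rose in that comparison (1.36, SE 0.29, edgeR adjusted p 0.0293). No test of a difference between the lists was made.

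**Figure D5:**
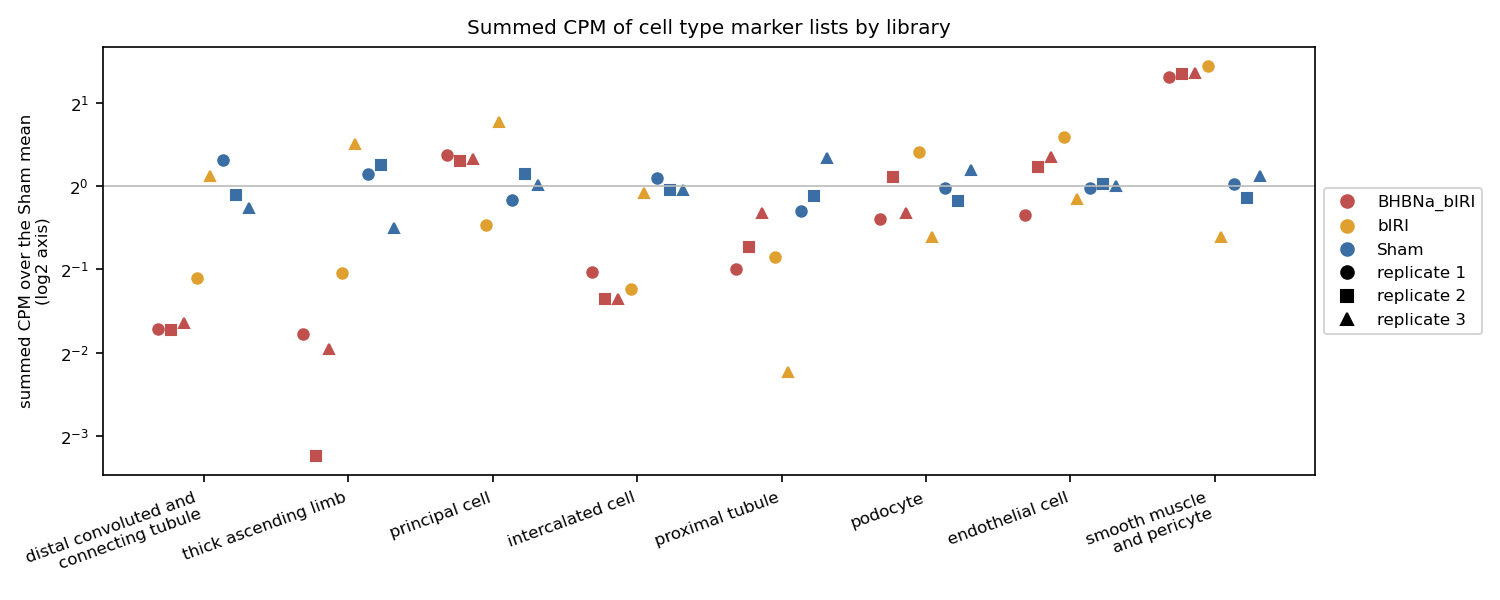
Summed TMM-scaled CPM of marker lists divided by the Sham mean of the same list (y axis, log2 scale), by library. The distal convoluted and connecting tubule genes lie at 0.302 to 0.320 in BHBNa_bIRI and at 0.464 and 1.08 in bIRI replicates 1 and 3, and the BHBNa_bIRI libraries are also the lowest for the thick ascending limb markers.

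Of 20 other genes of distal sodium transport and its WNK control, 1 rose and 9 fell in BHBNa_bIRI against Sham. The shares of all genes were 21.3% and 22.2%. In bIRI against Sham 3 rose and 2 fell (18.9% and 16.2% of all genes). In BHBNa_bIRI against bIRI 0 rose and 4 fell (4.88% and 8.65% of all genes). At an unadjusted p under 0.05, 9 of the 20 were lower there (34.5% of all genes were under it in either direction). With length and GC trends taken out, edgeR called 0 of the 20 in that comparison (0.0111% of all genes). In that fit 8 were lower at an unadjusted p under 0.05 (26.1% of all genes in either direction). The count also depended on which bIRI library was kept. Stk39, the gene of the kinase SPAK that phosphorylates NCC, rose in both injured groups: it had 37.3 to 44.4 CPM in BHBNa_bIRI, 48.7 and 80.8 CPM in bIRI and 24.4 to 29.3 CPM in Sham, with log2 fold changes of 0.67 (SE 0.20) in BHBNa_bIRI against Sham and 1.31 (SE 0.22) in bIRI against Sham (edgeR adjusted p 0.0236 and 0.00204). Cab39, which encodes the SPAK partner MO25, fell in BHBNa_bIRI against bIRI (log2 fold change -0.72, SE 0.15) and rose in bIRI against Sham (0.76, SE 0.15). Cul3, the scaffold gene of the KLHL3 ligase, fell in BHBNa_bIRI against bIRI (-0.85, SE 0.18, edgeR adjusted p 0.0292). The basolateral potassium channel genes Kcnj10 and Kcnj16 fell in BHBNa_bIRI against Sham (log2 fold changes -1.75, SE 0.36, and -1.28, SE 0.22), and so did Kcnj1, the gene of the channel ROMK (-2.09, SE 0.49), and Scnn1g, of the epithelial sodium channel (-1.25, SE 0.21). Kcnj10 and Kcnj1 also fell against bIRI (-2.08, SE 0.39, and -2.15, SE 0.53). Kcnj1 had 38.0, 29.3 and 46.1 CPM in BHBNa_bIRI and 56.2 and 280.0 CPM in bIRI. Without bIRI replicate 3 it was at -0.58 and not called, while Kcnj10 was called at -1.03. Neither was called with the length and GC correction (-1.83 for Kcnj1 and -1.69 for Kcnj10). The kinase gene Wnk2 and Hsd11b2, whose enzyme inactivates glucocorticoids, fell in bIRI against Sham (-1.78, SE 0.35, and -1.41, SE 0.30). Both also fell in BHBNa_bIRI against Sham (-1.23, SE 0.29, and -0.88, SE 0.26). Kcnj1 was also in the thick ascending limb list, and Hsd11b2 and Scnn1g in the principal cell list.

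Of 13 tested genes of magnesium handling, 0 rose and 7 fell in BHBNa_bIRI against Sham (21.3% and 22.2% of all genes did). In bIRI against Sham 1 rose and 6 fell (18.9% and 16.2%), and in BHBNa_bIRI against bIRI 1 rose and 3 fell (4.88% and 8.65%). With length and GC trends taken out edgeR called 0 in the last comparison (0.0111% of all genes). In that fit 4 were lower and 0 higher at an unadjusted p under 0.05 (26.1% of all genes in either direction). Egf, the epidermal growth factor gene, whose product stimulates TRPM6, had 9.91, 10.2 and 10.9 CPM in BHBNa_bIRI, 21.5 and 135 CPM in bIRI, and 1407, 1223 and 788 CPM in Sham. The 3 groups did not overlap, and Egf fell against Sham in BHBNa_bIRI (log2 fold change -6.79, SE 0.67, edgeR adjusted p 8.42e-05) and in bIRI (-3.86, SE 0.69, adjusted p 0.00276). It also fell in BHBNa_bIRI against bIRI (-2.93, SE 0.59, edgeR adjusted p 0.0284). That value was -1.07 without bIRI replicate 3 and -2.6 with the length and GC correction (edgeR adjusted p 0.0540). Egf is made in the thick ascending limb as well as in the distal convoluted tubule. Cnnm2, a basolateral magnesium transport gene, fell against Sham in BHBNa_bIRI (-1.11, SE 0.21) and in bIRI (-1.28, SE 0.25). Atp1b1, which encodes a subunit of the sodium pump, fell in BHBNa_bIRI against Sham (-2.19, SE 0.34) and against bIRI (-2.05, SE 0.36), where without bIRI replicate 3 it was at -1.26 (edgeR adjusted p 0.0241) and with the length and GC correction at -2.04 (adjusted p 0.0518). Pcbd1, which encodes a cofactor of HNF1 factors, was the gene that rose in BHBNa_bIRI against bIRI (0.99, SE 0.29, adjusted p 0.0495), a call lost without bIRI replicate 3 (0.61, adjusted p 0.127) and with the length and GC correction (0.30). It fell against Sham in BHBNa_bIRI (-1.23, SE 0.25) and in bIRI (-2.22, SE 0.30).

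Of 12 tested genes of calcium handling, 2 rose and 5 fell in BHBNa_bIRI against Sham (21.3% and 22.2% of all genes did). In bIRI against Sham 2 rose and 4 fell (18.9% and 16.2% of all genes). Trpv6, the gene of the calcium channel most like TRPV5, rose in both: it had 10.3, 13.0 and 12.7 CPM in BHBNa_bIRI, 7.42 and 7.33 CPM in bIRI, and 1.59, 1.28 and 1.55 CPM in Sham. The log2 fold changes of Trpv6 against Sham were 3.02 (SE 0.22, edgeR adjusted p 2.25e-05) in BHBNa_bIRI and 2.32 (SE 0.23, adjusted p 0.000174) in bIRI, beside -1.06 and -0.39 for Trpv5. Kl, the gene of Klotho, which the distal convoluted tubule shares with the proximal tubule, fell against Sham in BHBNa_bIRI (-3.04, SE 0.20) and in bIRI (-2.35, SE 0.22). The vitamin D receptor gene Vdr fell in BHBNa_bIRI (-2.08, SE 0.19) and in bIRI (-1.39, SE 0.21), and Pth1r, the parathyroid hormone receptor gene, did so too (-1.09, SE 0.18, and -1.70, SE 0.21). Cyp24a1, which encodes the vitamin D-degrading enzyme, rose in BHBNa_bIRI (2.90, SE 0.37) and in bIRI (2.33, SE 0.39). In BHBNa_bIRI against bIRI, 1 of the 12 was called (13.5% of all genes), the calcium-sensing receptor gene Casr. Casr had 3.24, 2.20 and 2.93 CPM in BHBNa_bIRI, 3.22 and 34.7 CPM in bIRI, and 39.8, 29.3 and 14.9 CPM in Sham. The log2 fold change of Casr was -2.76 (SE 0.76, edgeR adjusted p 0.0427), the groups overlapped, and it was not called without bIRI replicate 3.

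Of 12 transcription factor and identity genes of the distal tubule, 3 rose and 7 fell in BHBNa_bIRI against Sham. The shares of all genes were 21.3% and 22.2%. In bIRI against Sham 4 rose and 3 fell (18.9% and 16.2%), and in BHBNa_bIRI against bIRI 0 rose and 4 fell (4.88% and 8.65%). By edgeR the last count was 0 with length and GC trends taken out (0.0111% of all genes). In that fit 0 were higher and 7 lower at an unadjusted p under 0.05 (26.1% of all genes in either direction). Without bIRI replicate 3, the 4 that fell were at -0.74 (Tfap2b), -1.57 (Prox1), -0.68 (Esrrb) and -0.77 (Esrrg). Sall3, a transcription factor gene of the distal convoluted tubule, fell in BHBNa_bIRI against Sham (log2 fold change -2.21, SE 0.35, edgeR adjusted p 0.000987), and so did Tmem52b, a membrane protein gene (-2.32, SE 0.37). Emx1, a homeobox gene, fell against Sham in BHBNa_bIRI (-1.04, SE 0.18) and in bIRI (-1.68, SE 0.21). The estrogen-related receptor gene Esrrg fell in BHBNa_bIRI against Sham (-1.36, SE 0.23) and against bIRI (-1.17, SE 0.25), and Tfap2b and Esrrb fell against bIRI (-1.98, SE 0.44, and -1.93, SE 0.50). Prox1 had 1.12, 0.624 and 1.09 CPM in BHBNa_bIRI, 2.78 and 41.0 CPM in bIRI, and 5.54, 7.19 and 2.82 CPM in Sham, so that bIRI replicate 3 was far above all other libraries, and its log2 fold change in BHBNa_bIRI against bIRI was -4.54 (SE 0.89). The genes that rose in BHBNa_bIRI against Sham were Tfap2a (1.46, SE 0.27), Gata3 (1.05, SE 0.31) and the defensin gene Defb1 (0.64, SE 0.20). In bIRI against Sham, Tfap2a, Gata3 and Defb1 rose as well (1.40, SE 0.29, then 1.30, SE 0.34, and 0.97, SE 0.22). Gata3 had 14.1 and 36.6 CPM in bIRI replicates 1 and 3, and 9.07 to 11.7 CPM in Sham. Without bIRI replicate 3 the log2 fold change of Gata3 was 0.45, beside 1.17 for Tfap2a and 1.1 for Defb1.

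Among 10551 genes with a mean of at least 5 CPM, those with a course over the 8 libraries most like that of Slc12a3 were Lrrc56, Atp6v1b1, Nipal3, Cyb5d1 and Acacb, with root mean square differences of 0.267 to 0.290 on the centred log2(CPM + 0.5) scale. Atp6v1b1, a proton pump subunit gene of intercalated cells, had 24.7, 20.1 and 17.7 CPM in BHBNa_bIRI, 16.4 and 99.7 CPM in bIRI, and 80.6, 70.8 and 73.5 CPM in Sham. Slc8a1, at 0.323, was the closest of the other 9 genes to Slc12a3. For Trpv5 the nearest were Kank1, Acvr1b, C2cd3, Ppm1l and Epb41, with smaller differences of 0.0941 to 0.126. Kank1 had 31.4 to 37.4 CPM in BHBNa_bIRI, 41.1 and 70.2 CPM in bIRI, and 55.8 to 78.4 CPM in Sham.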

How the data were processed

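Kidney RNA of 9 libraries, 3 a group, was selected with oligo(dT) beads and sequenced as paired ends, per the labels' protocols. Each deposited table holds raw counts by gene. The submitters' processing notes name mm10, HISAT2, featureCounts, Subread and DESeq2; their roles, versions, annotation and strand setting are not given in the sources used here. Genes were named and placed with GENCODE M21 (29220 of 29678 identifiers had a symbol).

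The bIRI replicate 2 table, a mean of 2 others, was left out. Counts of 8 libraries were filtered with filterByExpr (17967 genes left), scaled by TMM (factors 0.830 to 1.37) and fitted with edgeR 4.0.16 in R 4.3.3 by a robust quasi-likelihood model with 1 mean a group and 5 residual degrees of freedom. Two-sided p-values got the Benjamini-Hochberg adjustment over all genes tested in a comparison, and the SE was the log2 fold change over the root of F. A floor of 3 counts equalled 0.0646 to 0.0815 CPM. The fit was tested on simulated data.

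The 10 genes and the lists were chosen with earlier results of these data known. The rule for names took all 10, up to 4 called genes of each list and comparison by smallest p, the 5 nearest genes to Slc12a3 and to Trpv5, and for marker lists their sums and top genes; Ckm and the motifs were chosen after values were seen. Of the genes this rule takes, 1 is not reported here. The 17 alternatives were DESeq2 1.42.0, RLE factors, scaling without mitochondrial and the 20 most abundant genes, no filter, a filter at 1 CPM in 3 libraries, a replicate block, natural splines (5 degrees of freedom) in transcript length and GC content as offsets (17928 of 17967 genes had both), that with the block, all 9 tables, and leaving out each library.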

Additional observations from a re-analysis of the deposited data

How the results depend on the processing

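Of the 4 genes called in BHBNa_bIRI against bIRI, 0 were called with the length and GC correction, 0 with the replicate block and 0 with both. In these fits 0.0111%, 0.00% and 0.00% of all genes were called. With a Sham or BHBNa_bIRI library left out the count ran from 0 to 2 (0.00% to 6.49% of all genes). In bIRI against Sham the count of 3 became 6 with the length and GC correction (36.6% of all genes) and 6 with the block added (26.5%). With a Sham or BHBNa_bIRI library left out it ran from 2 to 4 (23.4% to 32.6% of all genes). In BHBNa_bIRI against Sham the count of 8 became 6 with the length and GC correction and the block (39.6% of all genes). Trpm6 and Trpv5 were lost there. With a Sham or BHBNa_bIRI library left out the count ran from 7 to 8 (30.2% to 36.3% of all genes). DESeq2 called 6 of the 10 in BHBNa_bIRI against bIRI (27.2% of all genes) and 3 in bIRI against Sham (40.1%). In BHBNa_bIRI against Sham it called 9 (48.1%).

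Signs turned for genes that were not called. In bIRI against Sham, Trpm6 was -0.13 with the length and GC correction and -0.18 with the block added. With a library left out, its values ran from -0.08 to 0.34 (below 0 without Sham replicate 2, at -0.06, and without Sham replicate 3 or bIRI replicate 3), those of Slc12a3 from -1.99 to 0.22 and those of Wnk4 from -1.41 to 0.41, with the low end without bIRI replicate 3 and the high end without bIRI replicate 1. In BHBNa_bIRI against bIRI they ran from -2.20 to 0.02 for Slc12a3, -1.44 to 0.39 for Wnk4 and -1.35 to 0.23 for Klhl3, with the low end without bIRI replicate 1 and the high end without bIRI replicate 3, and from -0.65 to 0.05 for Pvalb (0.05 without BHBNa_bIRI replicate 2). Atp2b1 in BHBNa_bIRI against Sham ran from -0.10 to 0.28, with -0.01 without Sham replicate 3 and -0.10 without BHBNa_bIRI replicate 2. The cause was not tested. Of the values of single genes over the alternatives, 425 kept direction and side of the threshold, 29 newly passed it, 43 no longer passed it and 13 turned sign.

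The replicate numbers are those of the sample titles. Deviations from the group means of same-numbered Sham and BHBNa_bIRI libraries correlated at 0.0209, 0.0649 and 0.116, and those of differently numbered ones at -0.170 to 0.139. Same-numbered bIRI and BHBNa_bIRI libraries gave 0.0950 and -0.0916, and bIRI and Sham -0.123 and -0.289. The deviations of the 2 bIRI libraries mirror each other. These values therefore cannot show whether the numbers mark a pairing or a batch. With the replicate block edgeR called 0 of all 17967 genes in BHBNa_bIRI against bIRI (5270 at an unadjusted p under 0.05), 3 of the 10 genes and 25.5% of all genes in bIRI against Sham, and 7 of the 10 and 36.5% of all in BHBNa_bIRI against Sham. Over all genes, the 2431 called in BHBNa_bIRI against bIRI became 0 without Sham replicate 1, Sham replicate 2 or BHBNa_bIRI replicate 1, 1 without BHBNa_bIRI replicate 3, 794 without bIRI replicate 3, 1026 without Sham replicate 3, 1154 without BHBNa_bIRI replicate 2, 2 with the length and GC correction, 0 with that and the block, 4507 by DESeq2, 5847 with all 9 tables and 8381 without bIRI replicate 1. The 6303 called in bIRI against Sham became 4180 and 4192 without Sham replicates 1 and 2. The bIRI group had 2 usable libraries, and Pvalb rested on 8 to 29 counts in each injured library.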
